A study of Mus musculus with 30 samples.

Results

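Ageing from 4 to 24 weeks was compared in isolated glomeruli of wild-type mice, taking all 4 arrays of 24 week animals against all 3 arrays of 4 week animals. These 7 arrays are chosen by their titles from the 30 arrays of a study of BTBR wild-type and BTBR ob/ob mice at 4, 8, 16 and 24 weeks. All animals were female, and each array held RNA of a separate mouse. The groups used here were BTBR WT at 4 weeks (3 mice) and at 8, 16 and 24 weeks (4 mice each), and, to set the change beside a second genotype, BTBR ob/ob at 4 weeks (3 mice) and at 16 and 24 weeks (4 mice each). BTBR ob/ob at 8 weeks (4 mice) entered only through the fits to all 30 arrays. BTBR WT and BTBR ob/ob are the strain names of the labels, which give no littermate or colony, and no treatment. Kidneys were passed through a series of sieves, the glomeruli were collected, and their RNA was measured on an Affymetrix array with probe sets for genes, exons and introns. The 8 and 16 week arrays took no part in the difference itself but show where the means lie between its ends.

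The glomerulus is the filter of the kidney, built from fenestrated capillary endothelium, a basement membrane of type IV collagen and laminin, podocytes that wrap the capillaries, and mesangial cells that hold the tuft together. At weaning the rodent kidney is still enlarging and cells of the tuft and tubule divide, whereas in the adult most of them rest; matrix composition, local immune cells and hormone-dependent enzymes also shift as mice mature. The leptin-deficient ob/ob mouse of the BTBR strain becomes obese and diabetic.

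Values are log2 signals as the authors deposited them, and differences are given in log2 units, the 24 week mean minus the 4 week mean. The deposited values run up to 19.93, beyond the 16 of a 16-bit scanner, so some later step, unstated in the labels, widened the scale, and 1 unit is not read as a doubling. A gene was called where the p of limma's moderated test, adjusted by the Benjamini-Hochberg method over all 22892 tested genes, was below 0.05. Only called genes are said to have risen or fallen. Precision was limited by the number of arrays, 4 against 3, and differences had a median standard error of 0.14.

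The label of the tissue was checked first. Among 24 tested podocyte markers, Nphs1 (nephrin of the slit diaphragm) had signals of 9.86 to 10.27 at 4 weeks and 10.68 to 11.21 at 24 weeks, and Wt1 (a podocyte transcription factor) 8.35 to 8.78 and 9.20 to 9.79, so glomerular transcripts were present throughout. Tubular transcripts were present too: Slc34a1, the phosphate carrier of the proximal tubule, stood between 19.29 and 19.51 in the 7 arrays, and Umod, the uromodulin of the thick ascending limb, between 18.77 and 19.36, close to the top of the scale. The mean of the proximal tubule list was 16.01 to 16.61 at 4 weeks and 16.04 to 16.43 at 24 weeks. That of the distal nephron list was 11.75 to 12.97 and 11.87 to 13.22. Both lay above the podocyte (9.80 to 10.13 and 10.55 to 10.76), endothelial (10.48 to 10.88 and 10.92 to 11.16) and mesangial list means (9.17 to 9.51 and 9.29 to 9.62). Tubular signals were thus the higher ones in these samples, and the share of tubular RNA was not measured. Separation of exon from intron controls, a measure of array quality, was 0.847 to 0.862 at 4 weeks and 0.832 to 0.886 at 24 weeks, and intron controls had medians of 5.73 to 6.31 in wild-type arrays, which is the level near which signals carry little. Correlations between wild-type arrays were 0.981 to 0.996, and no pair was identical. At the ages in between, 16 week replicate 2 stood apart on podocyte genes (list mean 11.65, against 9.92 to 10.57 in the other 16 week arrays), and 8 week replicate 4 had the highest MHC class II signals of its group.

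Between 4 and 24 weeks 17 of 37 tested cell cycle genes fell, and 34 of 155 immunoglobulin variable segments and 4 of 34 genes of xenobiotic and steroid metabolism rose. Of 22892 genes, 216 were called (0.944%), 148 higher (0.647%) and 68 lower (0.297%) at 24 weeks, while the median difference over all genes was 0.01. In all 216 the 4 and 24 week arrays did not overlap; over all genes 7.23% lay entirely higher and 4.76% entirely lower at 24 weeks. At an unadjusted p below 0.05 there were 2711 genes (11.8%). The largest rises by the rule for naming genes were Apob, Cyp2a4, Aldh1a1, Mgp and Aldh1a7, and the largest falls were Mki67, Afm, Frrs1, Xpnpep2 and Ptgds. With cyclic loess scaling the split was 182 higher and 167 lower in place of 148 and 68. The number of calls moved with single arrays: 134 without 24 week replicate 2, 103 without 24 week replicate 3, 336 without 24 week replicate 4, 94 without 4 week replicate 2 and 122 without 4 week replicate 3.

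**Figure D1:**
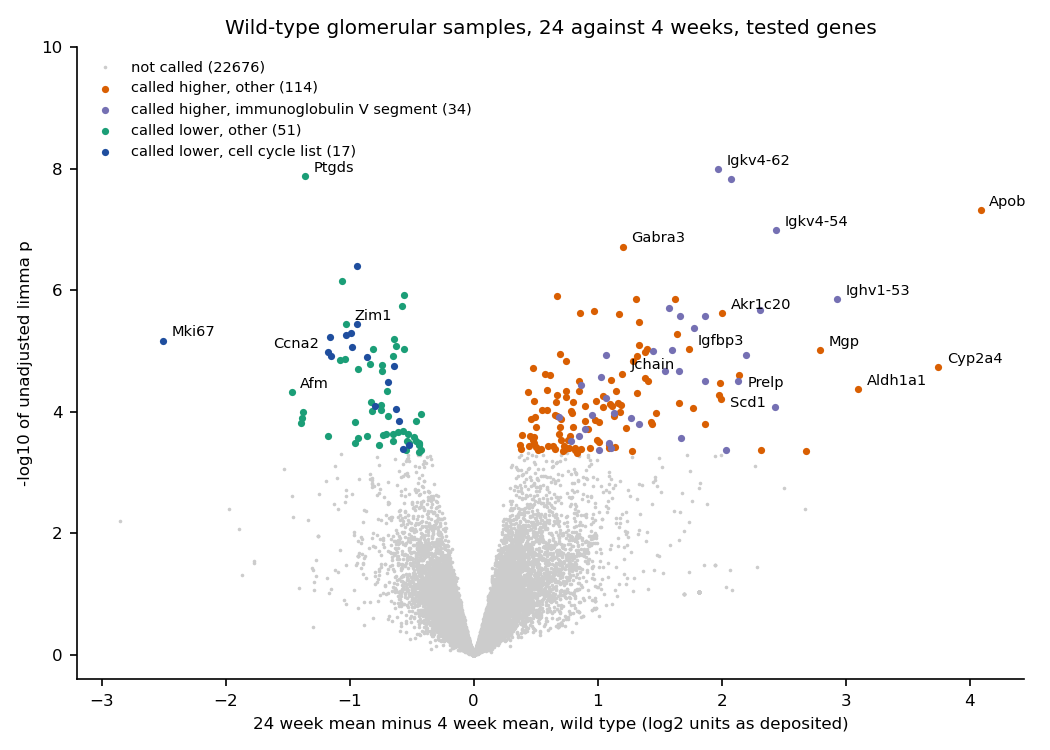
The 24 minus 4 week difference of each tested gene in wild-type arrays (x, log2 units) against the -log10 of its unadjusted limma p (y). Grey points are the 22676 genes not called, and coloured points are the 216 called ones, with 17 cell cycle genes on the left and 34 immunoglobulin variable segments on the right.

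The cell cycle list held the most falls of any list. Of 40 listed genes 37 were tested, while Ccnb1, Mcm7 and Foxm1 had no probe set of their own, and 17 fell, none rose and 20 were not called, against 0.297% of all genes lower. The 4 and 24 week arrays did not overlap in 29 of the 37, all lower at 24 weeks, against 4.76% of all genes. The median difference of the list was -0.45, with members from -2.51 to 0.06, beside 0.01 over all genes. The mean signal of the list was 6.33 to 6.72 in the 4 week arrays, 5.93 to 6.18 at 8 weeks, 5.83 to 6.0 at 16 weeks and 5.82 to 6.09 at 24 weeks, so the 4 week arrays stood above all others.

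Mki67 encodes the Ki-67 protein that coats chromosomes of dividing cells and is the standard marker of proliferation. Its signal was 9.91, 9.50 and 8.63 in the 4 week arrays and 6.78, 7.37, 7.12 and 6.09 in the 24 week arrays, and fell by 2.51 (SE 0.36, adjusted p 0.00485). Every 4 week array stood above every 24 week array, and the means at 8 and 16 weeks, 7.26 and 6.82, lay near the 24 week level. Ccna2, the cyclin A of S phase and mitotic entry, had 8.10, 7.90 and 7.46 at 4 weeks against 6.43, 6.90, 6.73 and 6.51 at 24 weeks and fell by 1.18 (SE 0.18, adjusted p 0.00544).

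Among 12 tested members with roles in the spindle, kinetochore and cytokinesis 8 fell, against 0.297% of all genes, with a median difference of -0.78. Kif11, the motor that pushes spindle poles apart, had 7.53, 6.91 and 6.82 at 4 weeks and 5.87, 6.22, 5.91 and 5.72 at 24 weeks, and fell by 1.16 (SE 0.17, adjusted p 0.00444). Tpx2, which nucleates spindle microtubules, read 7.35, 7.12 and 6.61 against 5.90, 6.12, 5.93 and 6.03 and fell by 1.03 (SE 0.15, adjusted p 0.0044). Both groups were again separate for these genes. Prc1 and Kif20a of the central spindle, Anln (anillin of the contractile ring), the kinetochore proteins Cenpe and Cenpf, and Nusap1 were the other members of this role that fell, by 0.63 to 0.98.

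Top2a, the topoisomerase that untangles chromosomes before they separate, had 7.58, 7.27 and 6.85 at 4 weeks and 5.95, 6.40, 6.06 and 5.91 at 24 weeks, and fell by 1.15 (SE 0.18, adjusted p 0.00564). Among 10 cyclins, mitotic kinases and checkpoint genes 4 fell (Ccna2, Ccnb2, Aurka and Plk1), against 0.297% of all genes, with a median of -0.43. The arrays of all 10 were separate and lower at 24 weeks, against 4.76% of all genes. Cdc20 and Ube2c, which drive the exit from mitosis through the anaphase-promoting complex, both fell, Cdc20 by 0.65 (adjusted p 0.00703) and Ube2c by 0.60 (adjusted p 0.0238). The Ube2c call was lost without 24 week replicate 1 or 3 or 4 week replicate 1 or 2, with the replicate number as a block and with only the 7 arrays in the fit (up to 0.115). Among 11 genes of DNA replication and S phase the median was -0.18, and Rrm2, a subunit of ribonucleotide reductase, was the member that fell, at 7.44, 7.28 and 6.95 against 6.15, 6.49, 6.18 and 6.14 (difference -0.99, SE 0.14, adjusted p 0.00425). The MCM helicase subunits Mcm2 to Mcm6 had differences between -0.27 and -0.09, none of them called, and Pcna -0.17. E2f1, at 0.06, was the member with a positive difference. These role groups were drawn after the values had been seen, and whether they differ from each other was not tested.

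Promoters of some called members are shown because CCAAT boxes and the TTTGAA letters of the cell cycle homology region are known elements of genes that peak in G2 and mitosis. All of those printed hold both, which not every called member does. Each run below is 250 bases before to 50 bases after the annotated start in GRCm38.p6, from RefSeq, written 5′ to 3′ along the gene, with capitals marking CCAAT or TTTGAA on either strand (ATTGG and TTCAAA are the reverse complements). Mki67 lies on the minus strand (chr7:135716330-135716629), Kif11 on the plus strand (chr19:37376132-37376431), Top2a on the minus strand (chr11:99024140-99024439) and Cdc20 on the minus strand (chr4:118437294-118437593).
Mki67: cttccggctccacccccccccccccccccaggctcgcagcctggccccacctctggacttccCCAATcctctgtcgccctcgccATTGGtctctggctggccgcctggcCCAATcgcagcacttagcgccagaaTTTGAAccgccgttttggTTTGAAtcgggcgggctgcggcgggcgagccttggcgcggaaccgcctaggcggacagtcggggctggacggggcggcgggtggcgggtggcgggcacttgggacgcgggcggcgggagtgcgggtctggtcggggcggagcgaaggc
Kif11: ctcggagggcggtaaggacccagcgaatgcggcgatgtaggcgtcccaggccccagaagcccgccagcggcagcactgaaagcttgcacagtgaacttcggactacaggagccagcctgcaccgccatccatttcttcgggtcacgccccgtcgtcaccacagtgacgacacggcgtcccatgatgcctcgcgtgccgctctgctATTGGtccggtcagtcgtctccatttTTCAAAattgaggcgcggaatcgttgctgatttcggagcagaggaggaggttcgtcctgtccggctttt
Top2a: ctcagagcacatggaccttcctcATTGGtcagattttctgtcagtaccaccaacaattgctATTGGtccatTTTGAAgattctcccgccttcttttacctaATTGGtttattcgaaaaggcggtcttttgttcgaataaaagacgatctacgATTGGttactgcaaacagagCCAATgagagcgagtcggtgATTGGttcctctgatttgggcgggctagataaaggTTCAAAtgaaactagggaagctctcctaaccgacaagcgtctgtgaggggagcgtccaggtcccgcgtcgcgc
Cdc20: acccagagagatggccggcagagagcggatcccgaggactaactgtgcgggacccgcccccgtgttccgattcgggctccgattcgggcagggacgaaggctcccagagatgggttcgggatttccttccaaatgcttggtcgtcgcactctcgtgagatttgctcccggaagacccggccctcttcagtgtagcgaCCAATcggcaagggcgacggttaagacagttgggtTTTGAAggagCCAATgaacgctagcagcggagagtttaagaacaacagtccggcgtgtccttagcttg

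Mki67 held 3 CCAAT matches and 2 TTTGAA matches, Kif11 held 1 of each, Top2a 6 and 2, and Cdc20 2 and 1. Promoters were found for 14 of the 17 members that fell. CCAAT was present in 12 of the 14 (85.7%), TTTGAA in 11 (78.6%) and both in 10 (71.4%). Among those not printed, Rrm2 and Cenpe held CCAAT without TTTGAA, Anln TTTGAA without CCAAT, and Nusap1 neither. Over all 27025 genes of the promoter table CCAAT was present in 41.1%, TTTGAA in 20.2% and both in 7.97%. Among the 20 members not called, 17 had a promoter and 6 of these (35.3%) held both. The 2 sets of letters can overlap by their shared T, and a match is a description of the letters in this window, not a binding site. The motifs characterise cell cycle genes as such and were not tested against the size of the fall.

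Mitotic genes outside the list fell as well, and they were picked after their values were seen. Arhgap11a, a regulator of cytokinesis, had 8.51, 7.86 and 8.01 at 4 weeks and 7.07, 7.17, 7.03 and 6.96 at 24 weeks, and fell by 1.07 (SE 0.13, adjusted p 0.00202). Pbk, a mitotic kinase, fell by 1.04 (adjusted p 0.00609), and Ect2, Hmmr, Cdkn3, Shcbp1, Kif4 and Aspm fell by 0.65 to 0.96 each. Ezh2, the methyltransferase of histone H3 lysine 27, fell by 0.63 (SE 0.09, adjusted p 0.00537) from 7.97, 7.75 and 7.69 to 7.10, 7.22, 7.19 and 7.20. Dnmt3a, a de novo DNA methyltransferase, fell by 0.56 (SE 0.08, adjusted p 0.00537) from 9.07, 9.34 and 9.15 to 8.58, 8.68, 8.65 and 8.61. In a list of 18 tested fetal growth and progenitor regulators these were the 2 calls.

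The cell cycle falls were counted again under other settings. With only the 7 arrays compared in the fit 10 members fell, and leaving out single arrays gave 12 to 19. Mki67, Ccna2, Kif11, Top2a, Tpx2 and Arhgap11a were called under all 21 alternatives. Ccnb2 was lost without 24 week replicate 3 or 4 week replicate 2 (adjusted p from 0.00609 to 0.108 over the alternatives), Aurka without any 4 week array or 24 week replicate 2, 3 or 4 (up to 0.152), and Plk1 without any 24 week array or 4 week replicate 1 or 2 (up to 0.223). With only the 7 arrays all of these were lost. Aurka and Plk1 were also lost with the replicate number as a block and without 8 week replicate 4, and Plk1 without the filter. Nusap1 was lost without 4 week replicate 1 or 2, with the replicate number as a block and with only the 7 arrays (up to 0.112), and Cdc20, Cenpf, Pbk, Shcbp1 and Aspm with only the 7 arrays (up to 0.072, 0.0671, 0.0713, 0.0503 and 0.0573). Of the genes outside the list, Ect2, Hmmr and Kif4 were lost without 24 week replicate 3 or 4 week replicate 1 or 2, Cdkn3 without 24 week replicate 3, Ect2 and Hmmr also without 24 week replicate 1, and Hmmr without 24 week replicate 2 or 4. These genes were also lost with only the 7 arrays and with the replicate number as a block. Their adjusted p reached 0.0775 (Ect2), 0.149 (Hmmr), 0.0993 (Kif4) and 0.0964 (Cdkn3) over the alternatives. Podocyte and endothelial lists had positive medians in the same arrays, and their part in these falls was not tested.

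The second group was immunoglobulin variable segments, the gene pieces from which B cells assemble antibodies. Of 199 segments on the array 155 passed the filter on low signals, and 34 rose and none fell, against 0.647% of all genes higher; 8 of the 34 were below the filter level of 5 in every 4 week array and so passed through their older arrays. Without the filter 33 of all 199 were called. Segments of the families Igkv4 (13 of 21 tested) and Ighv1 (19 of 53) made up nearly all calls, and 2 of 81 other segments were called. Medians were 1.57 in Igkv4, 0.92 in Ighv1 and 0.20 in the others, beside 0.01 over all genes. Segments of a family are near-identical in sequence, so probes can share signal and the single segments are uncertain and not independent.

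Igkv4-54, a kappa chain segment, had 5.24, 5.52 and 4.96 at 4 weeks and 7.40, 8.03, 7.79 and 7.49 at 24 weeks, a rise of 2.44 (SE 0.25, adjusted p 0.000472). Ighv1-53, a heavy chain segment, had 5.70, 5.22 and 5.50 against 8.14, 9.50, 8.36 and 7.62, a rise of 2.93 (SE 0.37, adjusted p 0.00251). The 4 week signals of both lay below the intron controls, and every 24 week array stood above every 4 week array. The median Igkv4 signal was 5.24 at 4 weeks, 5.63 at 8 weeks, 6.22 at 16 weeks and 6.83 at 24 weeks, and that of Ighv1 5.26, 5.4, 6.03 and 6.16. Jchain, which joins secreted IgA and IgM into polymers, had 5.01, 5.39 and 4.98 against 5.73, 6.70, 6.20 and 6.67 and rose by 1.20 (SE 0.19, adjusted p 0.0083). It was the 1 call among 13 tested B and plasma cell genes, whose list mean was 5.62 to 5.79 at 4 weeks and 5.83 to 5.93 at 24 weeks and whose median difference was 0.10. The B cell receptor genes Cd79a and Cd79b stood at 5.29 and 5.0 at 4 weeks and 5.24 and 5.14 at 24 weeks, below the intron controls at both ages, and the part of B cells in the result was not tested.

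The count of segments called higher was 21 without 24 week replicate 3, 21 without 4 week replicate 2 and 19 without 4 week replicate 3, and 24 with only the 7 arrays in the fit. Igkv4-54, Igkv4-59, Igkv4-62 and Ighv1-53 were called under all 21 alternatives, and Jchain was lost with only the 7 arrays (adjusted p 0.0847, with 0.0011 to 0.0847 over all alternatives).

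**Figure D2:**
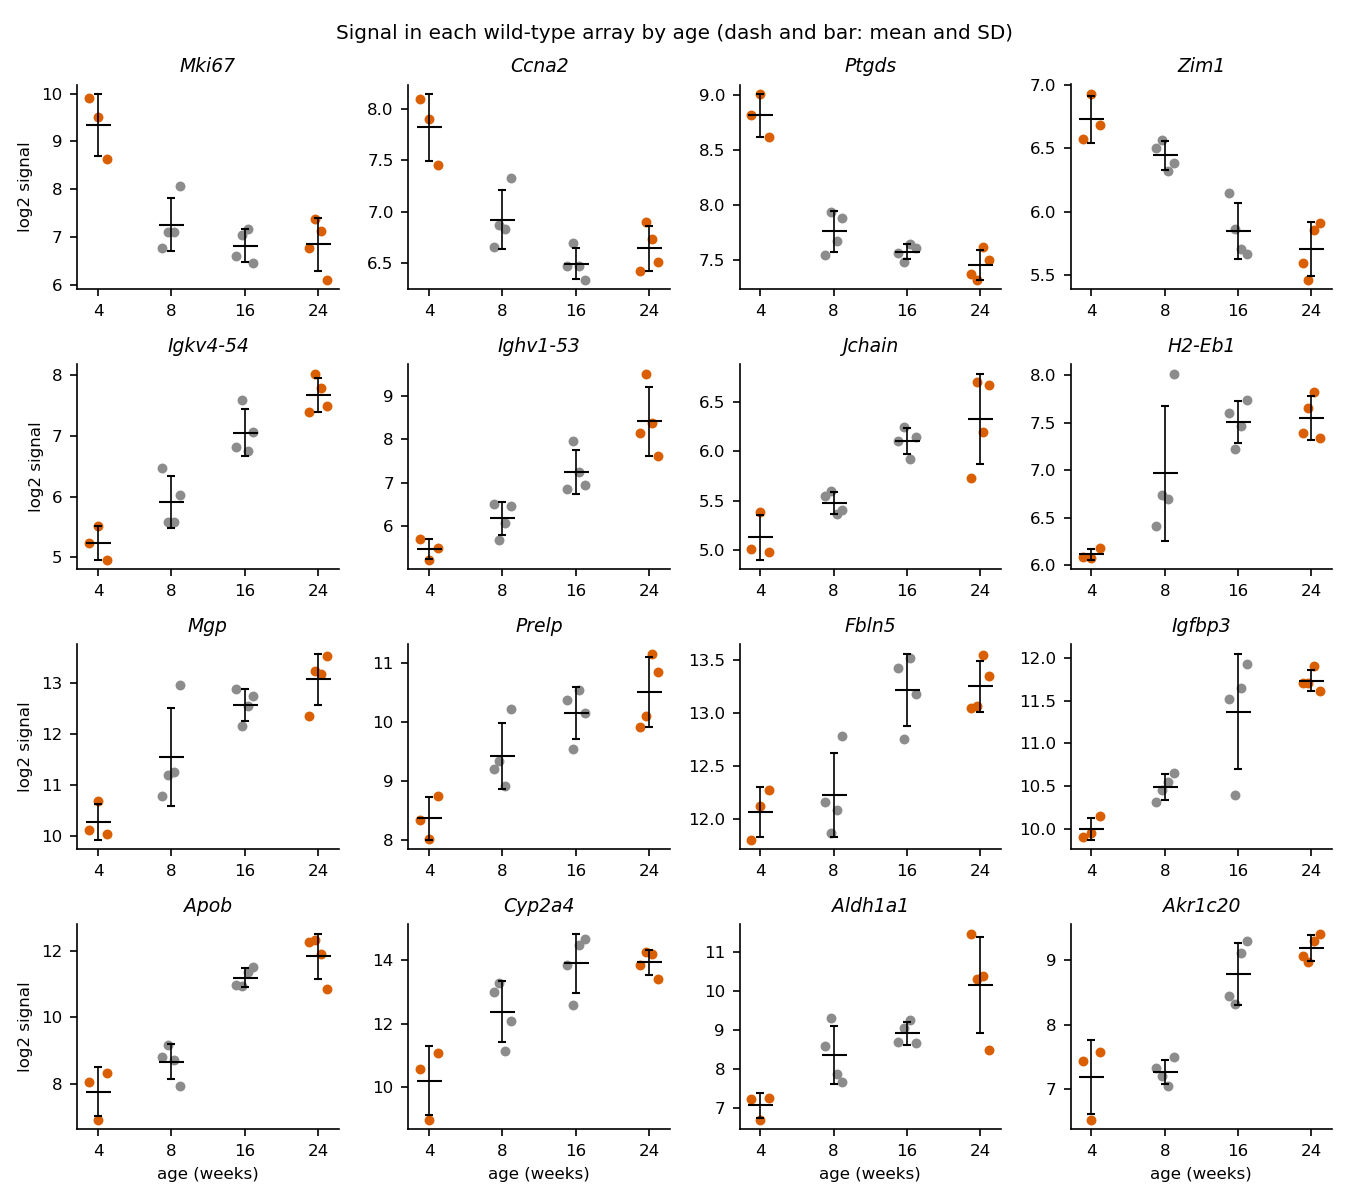
Log2 signal of 16 genes (y) in each wild-type array by age in weeks (x), with the 4 and 24 week arrays in orange, the 8 and 16 week arrays in grey, and the mean and SD of each group in black. Mki67, Ccna2 and Ptgds had 8 week means near the 24 week level, while Igkv4-54, Ighv1-53 and Igfbp3 had means that increased at each age.

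Antigen presentation and myeloid genes were higher in many members without passing the test. Of 17 MHC and antigen presentation genes 1 rose, against 0.647% of all genes. It was H2-Eb1, a chain of the MHC class II molecule that presents peptides to helper T cells. Its signal was 6.09, 6.08 and 6.18 at 4 weeks and 7.39, 7.66, 7.82 and 7.33 at 24 weeks, a rise of 1.43 (SE 0.28, adjusted p 0.0258). H2-Ab1, of the same class, had 9.25, 9.37 and 9.41 against 11.12, 11.03, 11.17 and 11.03 (difference 1.74, SE 0.42, adjusted p 0.0745). In 12 of the 17 the 24 week arrays lay entirely higher, against 7.23% of all genes. In 1 they lay entirely lower, against 4.76%, and this was Ifi30 (a lysosomal thiol reductase of antigen processing, difference -1.19, adjusted p 0.0917). At 8 weeks replicate 4 was highest in both class II genes, and without it 5 of the 17 passed as higher. H2-Eb1 was lost without 24 week replicate 2 or 3 or any single 4 week array, and with the replicate number as a block. Its adjusted p was 0.000553 to 0.108 over the alternatives. MHC genes are similar in sequence and can share probe signal.

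Of 19 macrophage and myeloid genes limma called none, and 7 had an unadjusted p below 0.05, beside 11.8% of all genes. In 11 the 24 week arrays lay entirely higher, beside 7.23% of all genes. Adgre1 (F4/80, a macrophage surface marker) had 5.56, 5.46 and 5.57 at 4 weeks and 5.85, 5.88, 5.81 and 5.73 at 24 weeks (difference 0.29, adjusted p 0.276), near or below the intron controls at both ages. Csf1r, the receptor for the macrophage growth factor, had a difference of 0.54 (adjusted p 0.0835) and Lyz2, a lysozyme, 1.23 (adjusted p 0.473). All 17 tested cytokine, chemokine and adhesion genes had positive differences, with a median of 0.39, beside 12197 positive among all 22892 genes. None of them passed in limma, and 9 had an unadjusted p below 0.05, beside 11.8% of all genes. Tlr7, an endosomal RNA receptor chosen after its values were seen, had 5.99, 5.77 and 5.94 against 6.72, 7.63, 7.80 and 7.16. It rose by 1.43 (SE 0.28, adjusted p 0.0243), a call lost without 24 week replicate 2 or 3 or any 4 week array (up to 0.116). With only the 7 arrays in the fit it was lost as well. Cxcl13, a B cell attracting chemokine, ranged widely at 24 weeks, with 12.59, 13.79, 11.99 and 9.57 against 9.64, 10.26 and 9.85 (difference 2.07, SE 0.92, adjusted p 0.387), so its groups overlapped. In the complement list of 14 the 1 rise was Serping1, the C1 inhibitor (1.09, SE 0.24, adjusted p 0.0458). It was lost without 24 week replicate 1, 3 or 4 or any 4 week array (up to 0.153). It was also lost without the filter, with all 30 arrays or only the 7 in the fit, with cyclic loess and with array weights.

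**Figure D3:**
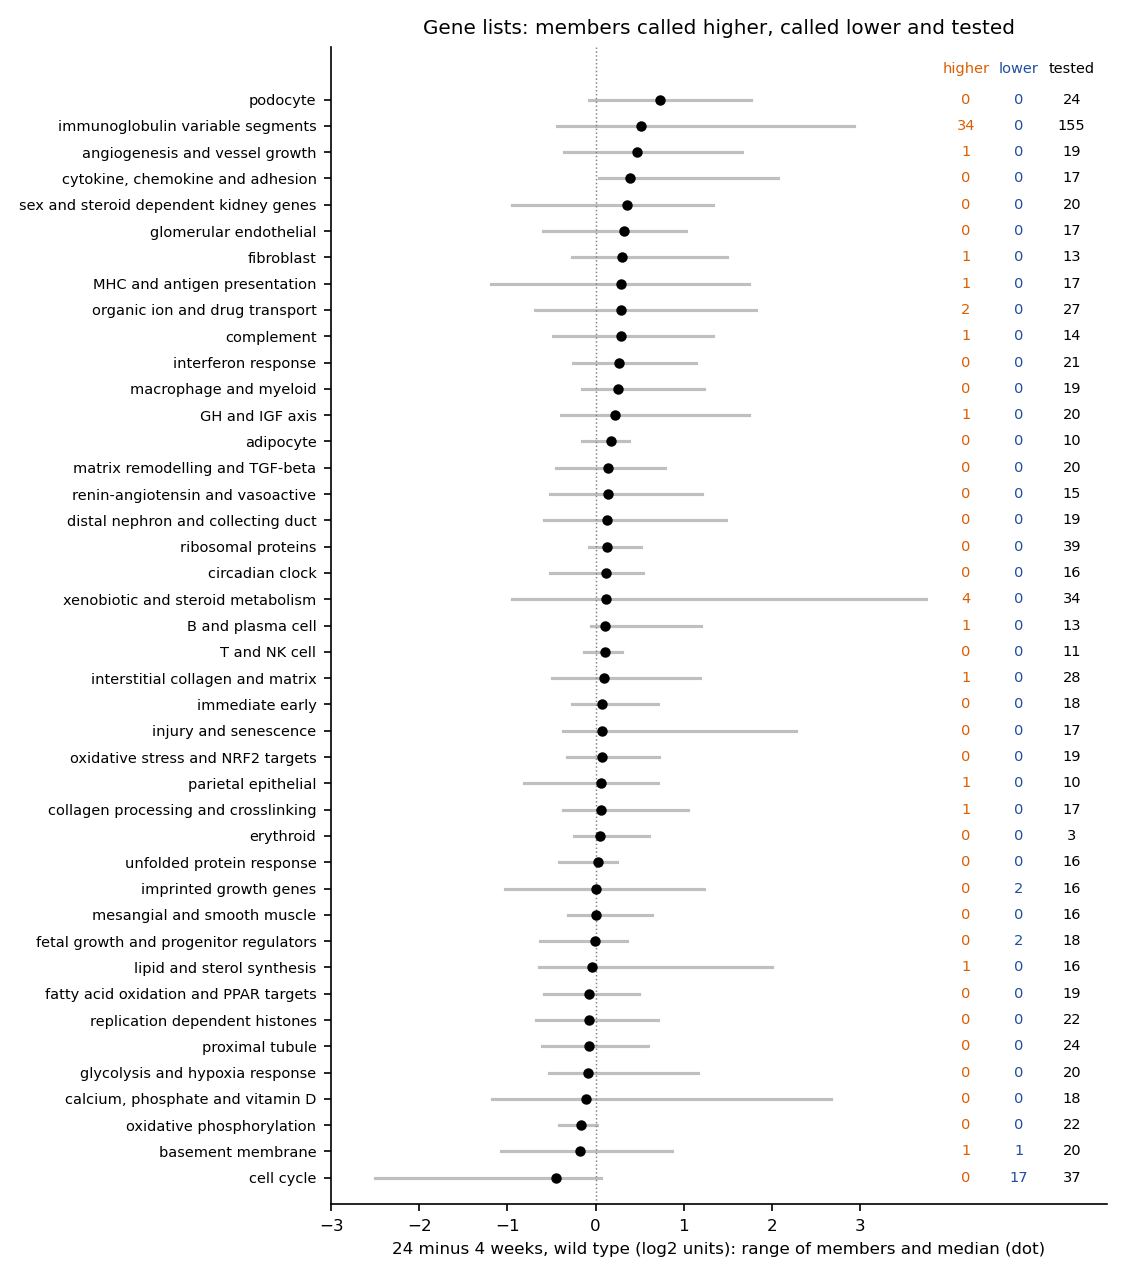
Range (grey line) and median (dot) of the 24 minus 4 week differences of each gene list in wild-type arrays (x, log2 units), with the numbers of members called higher, called lower and tested at the right. The cell cycle list lies lowest with 17 of 37 lower, and immunoglobulin segments hold 34 of 155 higher.

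Most matrix genes were not called: 1 of 28 interstitial collagen and matrix genes rose, 1 of 17 of collagen processing rose, and of 20 basement membrane genes 1 rose and 1 fell. Mgp, the matrix Gla protein that blocks calcification of vessels, had 10.12, 10.69 and 10.04 at 4 weeks and 12.35, 13.24, 13.18 and 13.54 at 24 weeks, a rise of 2.79 (SE 0.42, adjusted p 0.00537). Prelp, a leucine-rich proteoglycan that anchors basement membrane to collagen, had 8.34, 8.02 and 8.75 against 9.91, 10.11, 11.16 and 10.85, a rise of 2.14 (SE 0.35, adjusted p 0.00841). Both sets of arrays were separate for these genes. Fbln5, which assembles elastic fibres, had 11.80, 12.13 and 12.27 against 13.04, 13.06, 13.55 and 13.35 and rose by 1.18 (SE 0.22, adjusted p 0.0199), and Loxl1, which crosslinks elastin, had 7.06, 7.51 and 7.49 against 8.32, 8.32, 8.52 and 8.43 and rose by 1.04 (SE 0.18, adjusted p 0.014).

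For Eln, elastin itself, the means were 8.61 at 4 weeks and 8.11 at 24 weeks (difference -0.50, adjusted p 0.142). Fbln5 was the call of the interstitial list and Loxl1 that of the collagen processing list. Fibrillar collagens were not called, with Col1a1 at -0.27 (adjusted p 0.635), Col1a2 at -0.25 (0.599) and Col3a1 at -0.36 (0.312). Dpt, dermatopontin, rose by 1.01 (SE 0.20, adjusted p 0.0243) and was the 1 call of 13 fibroblast genes, whose list mean was 7.64 to 7.76 at 4 weeks and 7.98 to 8.22 at 24 weeks. The part of fibroblasts in these rises was not tested. Other secreted matrix proteins that rose, named after their values were seen, were Ogn (osteoglycin, 1.32), Spon1 (spondin, 1.41), Matn2 (matrilin, 0.85), Svep1 (0.97), Abi3bp (1.13) and Itih5, a partner of hyaluronan (1.31). Their adjusted p values lay between 0.00281 and 0.0216.

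The basement membrane calls were Nid2 and Lama2. Nid2, a nidogen that links laminin to type IV collagen, had 9.65, 9.94 and 9.86 at 4 weeks and 9.26, 9.04, 9.11 and 9.03 at 24 weeks, and fell by 0.70 (SE 0.14, adjusted p 0.0342). Lama2, a laminin chain, had 8.09, 8.21 and 8.71 against 9.35, 8.84, 9.25 and 9.35, a rise of 0.86 (SE 0.19, adjusted p 0.0469). In 7 of the 20 the 24 week arrays lay entirely lower, against 4.76% of all genes. Col4a1 and Col4a2, the collagen IV chains of most basement membranes, were among them: Col4a1 had 10.003, 10.47 and 10.16 against 9.52, 9.37, 9.30 and 9.18 (difference -0.87, SE 0.26, adjusted p 0.17), and Col4a2 10.77, 11.18 and 10.97 against 10.11, 9.91, 9.86 and 9.75 (difference -1.07, SE 0.24, adjusted p 0.052). Their groups did not overlap, but neither passed. The chains of the mature glomerular membrane had smaller differences, Col4a3 -0.23 (adjusted p 0.831), Col4a4 -0.37 (0.279) and Col4a5 -0.52 (0.0581), and their distance from Col4a1 and Col4a2 was not tested. Lamb1 and Lamb2, the laminin beta chains, had differences of -0.20 and 0.55, neither called.

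Several of these calls rested on single arrays. Nid2 was lost without 24 week replicate 2, 3 or 4 or 4 week replicate 2 or 3 (up to 0.165), Lama2 without 24 week replicate 1, 3 or 4 or 4 week replicate 1 or 2 (up to 0.203), and Dpt without 24 week replicate 2 or 3 or 4 week replicate 2 or 3 (up to 0.116). Fbln5 was lost without 24 week replicate 3 or 4 week replicate 1 or 2 (up to 0.0917), Loxl1 without 24 week replicate 3 or 4 week replicate 1 (up to 0.0534) and Prelp and Spon1 without 4 week replicate 2 (0.055 and 0.0526). Ogn was lost without 24 week replicate 3 or 4 week replicate 2 (up to 0.124), and Abi3bp without 24 week replicate 2 or any 4 week array (up to 0.0847). Other settings lost calls too. With the replicate number as a block Nid2, Lama2, Dpt and Ogn were lost, and with all 30 arrays Lama2, Fbln5 and Ogn. With only the 7 arrays Lama2, Dpt and Abi3bp were lost, and without the filter Lama2. Mgp and Itih5 were called under all 21 alternatives.

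The largest rises by the naming rule were Apob and Cyp2a4. Apob, the structural protein of secreted lipoproteins, had 8.05, 6.91 and 8.31 at 4 weeks and 12.27, 12.34, 11.90 and 10.86 at 24 weeks, a rise of 4.09 (SE 0.39, adjusted p 0.000276). Its 8 and 16 week means were 8.66 and 11.20. In the 16 against 8 week arrays, which share no array with the main difference but entered its spread, it rose by 2.54 (SE 0.36, adjusted p 0.0317). There 5 of 22892 genes were called (0.0218%). Apob lost that call when any single 8 or 16 week array other than 16 week replicate 2 was left out. The other 4 were Cdkn1a and Cubn, whose 4 and 24 week arrays overlapped, and Gm24920 and Zfp691, which were not called between 4 and 24 weeks. Cyp2a4, a steroid hydroxylase, had 10.56, 8.95 and 11.07 against 13.85, 14.27, 14.21 and 13.42, a rise of 3.75 (SE 0.59, adjusted p 0.00708).

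Aldh1a1, which makes retinoic acid from retinal, had 7.22, 6.69 and 7.26 at 4 weeks and 11.47, 10.29, 10.38 and 8.48 at 24 weeks, a rise of 3.10 (SE 0.53, adjusted p 0.0122). Aldh1a7, its close paralog, had 7.33, 6.48 and 7.55 against 11.15, 10.05, 10.001 and 7.99 (rise of 2.68, SE 0.59, adjusted p 0.048). In both genes 24 week replicate 4 lay lowest of its group, still above the 4 week arrays. The paralogs are near-identical, as are Cyp2a4, Cyp2d12, Cyp4a12a, Akr1c20 and Serpina1b to others of their families, so the signal of each may include a relative. Akr1c20, an aldo-keto reductase, had 7.44, 6.52 and 7.58 against 9.06, 8.97, 9.30 and 9.41, a rise of 2.00 (SE 0.26, adjusted p 0.00281).

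Several other metabolic genes were called. Cyp2d12, a drug-metabolising cytochrome, rose by 1.98 (SE 0.35, adjusted p 0.0139), Cyp4a12a, a fatty acid hydroxylase, by 1.87 (SE 0.37, adjusted p 0.0254), and Scd1, which desaturates stearate, by 2.00 (SE 0.35, adjusted p 0.0151). Hsd11b1, which regenerates active glucocorticoid, rose by 1.10 (SE 0.20, adjusted p 0.0167), and Serpina1b, a member of the alpha-1 antitrypsin family, by 1.99 (SE 0.33, adjusted p 0.0101). Of 34 tested genes of xenobiotic and steroid metabolism 4 rose (Cyp2a4, Cyp2d12, Cyp4a12a and Hsd11b1), against 0.647% of all genes, and none fell. The list median was 0.12. Without 24 week replicate 3 or 4 week replicate 2 the count was 1, and without 4 week replicate 1 it was 2. In the organic ion transport list of 27 the efflux pump Abcc4 (1.14, adjusted p 0.0455) and the uptake carrier Slco1a4 (0.50, adjusted p 0.0283) rose.

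None of 20 tested members of a list of sex and steroid dependent kidney genes was called by limma. Of these, 10 had an unadjusted p below 0.05, beside 11.8% of all genes. Kap, an androgen-dependent protein of the proximal tubule, had 17.32, 16.69 and 17.56 against 16.54, 17.54, 18.03 and 18.94 (difference 0.57, adjusted p 0.762), and its groups overlapped. Cyp4b1, another androgen-dependent gene, had a difference of 1.33 (adjusted p 0.0981). The list is a selection and does not hold Cyp2a4 or Cyp4a12a, which rose, so it does not speak for every hormone-dependent gene. The proximal tubule list had a median of -0.08, with none of 24 members called by limma and 4 at an unadjusted p below 0.05, and the part of tubular RNA in the rises above was not tested. Havcr1, which encodes kidney injury molecule-1, had 7.36, 6.54 and 7.09 at 4 weeks and 8.17, 10.12, 9.94 and 8.82 at 24 weeks; the groups did not overlap, but the difference of 2.27 (SE 0.53) did not pass (adjusted p 0.0667).

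Across alternatives Apob, Cyp2a4 and Akr1c20 were called throughout. Aldh1a1 was lost without 4 week replicate 2 (adjusted p of 0.000471 to 0.0759 over its alternatives), Scd1 without 4 week replicate 1 or 2 (0.00398 to 0.0847), Serpina1b without 4 week replicate 3 (0.00239 to 0.0559), Cyp2d12 without 24 week replicate 3 or 4 week replicate 2 (0.00263 to 0.0795) and Hsd11b1 without 24 week replicate 3 or 4 week replicate 1 or 2 (0.00398 to 0.0823). Aldh1a7 and Abcc4 were lost without any single 4 week array or 24 week replicate 1, 2 or 3 (up to 0.223 and 0.168), Slco1a4 without any 4 week array or 24 week replicate 2 or 3 (up to 0.142), and Cyp4a12a likewise (up to 0.124). With only the 7 arrays in the fit Aldh1a1, Scd1, Aldh1a7, Abcc4, Slco1a4 and Cyp4a12a were lost, and with all 30 arrays Hsd11b1. The replicate block lost Abcc4, Slco1a4 and Cyp4a12a, and cyclic loess Slco1a4. Aldh1a7 and Abcc4 were lost without the filter and without 8 week replicate 4, and Aldh1a7 without 16 week replicate 2.

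Growth factor and vessel genes gave single calls. Igfbp3, the main carrier of insulin-like growth factors, had 9.90, 9.95 and 10.15 at 4 weeks and 11.71, 11.71, 11.91 and 11.62 at 24 weeks, a rise of 1.74 (SE 0.26, adjusted p 0.00537), and was called under all 21 alternatives. It was the 1 call of 20 genes of the growth hormone and IGF axis. Igf1, its ligand, had a difference of 0.29 (adjusted p 0.622) with overlapping groups, and Igf2, the fetal form, 0.52 (adjusted p 0.0897) at signals of 5.49 to 6.42. Esm1, a proteoglycan of endothelial tip cells, had 7.47, 7.69 and 7.36 against 8.08, 9.62, 9.40 and 9.56 and rose by 1.66 (SE 0.30, adjusted p 0.0163). It was the 1 call of 19 angiogenesis genes. The call was lost without 24 week replicate 2 or 3 or 4 week replicate 2 or 3 and with only the 7 arrays in the fit (up to 0.0964). Flt1 and Kdr, the receptors of vascular endothelial growth factor, had differences of 1.03 (adjusted p 0.101) and 0.88 (0.431), with no overlap. Hgf, hepatocyte growth factor, rose by 0.86 (SE 0.11, adjusted p 0.00281), and Dkk3, a member of the Dickkopf family, by 0.70 (SE 0.14, adjusted p 0.0231). The Dkk3 call was lost without 24 week replicate 3 or any 4 week array and with only the 7 arrays in the fit (up to 0.093).

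Imprinted genes are expressed from the maternal or the paternal copy alone, and many regulate growth. Of 16 tested, Zim1 and Peg3, neighbouring zinc finger genes, fell. Zim1 had 6.57, 6.93 and 6.69 at 4 weeks and 5.59, 5.46, 5.85 and 5.91 at 24 weeks, and fell by 1.03 (SE 0.14, adjusted p 0.00333). Peg3 had 8.61, 9.17 and 8.97 against 7.86, 7.86, 7.88 and 8.35, and fell by 0.93 (SE 0.15, adjusted p 0.00733). Both pairs of groups were separate, and Zim1 was called under all 21 alternatives, Peg3 in all but the fit of the 7 arrays (up to 0.069) and, by its size, the minimum difference of 1. The other members included Mest at -0.53 (adjusted p 0.375), Dlk1 at -0.31 (0.356) and Plagl1 at 0.63 (0.313), and the list median was 0.01.

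The other large falls by the naming rule were single genes of different roles. Ptgds, the prostaglandin D synthase, had 8.81, 9.01 and 8.62 at 4 weeks and 7.37, 7.32, 7.62 and 7.5 at 24 weeks, and fell by 1.36 (SE 0.12, adjusted p 0.000113), the smallest adjusted p among the falls named here. Serpinb8, an intracellular protease inhibitor, fell by 1.08 (SE 0.17, adjusted p 0.00616), and both were called under all 21 alternatives. Afm, afamin of the albumin family, had 12.67, 12.58 and 12.72 against 11.14, 11.06, 11.50 and 11.04, and fell by 1.47 (SE 0.25, adjusted p 0.0128). Frrs1, a ferric reductase, fell by 1.39 (SE 0.27, adjusted p 0.0251), and Xpnpep2, a membrane aminopeptidase, by 1.39 (SE 0.27, adjusted p 0.0227). Bspry fell by 1.17 (SE 0.24, adjusted p 0.0357). Afm was lost without 4 week replicate 2 or 3 (up to 0.0601), Frrs1 and Xpnpep2 without 24 week replicate 1 or 2 or 4 week replicate 2 or 3 (up to 0.129 and 0.111), and Bspry without 24 week replicate 2, 3 or 4 or 4 week replicate 2 or 3 (up to 0.18). With the replicate number as a block Afm, Xpnpep2 and Bspry were lost, and with only the 7 arrays Frrs1.

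Podocyte, endothelial and mesangial lists held no call, and of 10 tested genes of the parietal epithelium of the capsule 1 rose, Dkk3, described above. Of 24 podocyte genes limma called none, and 12 had an unadjusted p below 0.05, against 11.8% of all genes. The 24 week arrays lay entirely higher in 18, against 7.23% of all genes, and the median difference was 0.73. The podocyte list mean was 9.80 to 10.13 at 4 weeks and 10.55 to 10.76 at 24 weeks, with no overlap. Tcf21, a podocyte transcription factor, had 8.64, 7.89 and 9.06 against 10.07, 9.99, 9.81 and 10.23 (difference 1.49, SE 0.34, adjusted p 0.0548), and Sema3g, a podocyte semaphorin, 10.75, 11.03 and 11.55 against 12.69, 13.42, 12.72 and 12.66 (difference 1.76, SE 0.49, adjusted p 0.138). With only the 7 arrays in the fit 5 of the 24 were called higher, and 4 without 16 week replicate 2, the array that stood apart on these genes. Endothelial genes had a median of 0.32 with 8 of 17 entirely higher, and Pecam1 a difference of 0.41 (adjusted p 0.677). Mesangial and smooth muscle genes had a median of 0.00 and Pdgfrb, the mesangial receptor, 0.13 (adjusted p 0.962). In these bulk samples more cells of a type and more RNA per cell cannot be told apart.

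The 8 and 16 week means were set against the 4 to 24 week differences. For the 17 cell cycle genes that fell, the 8 week mean had covered a median of 83.3% of the 4 to 24 week difference and the 16 week mean 102%. In the other 51 genes that fell these shares were 75.4% and 86.3%. The 34 immunoglobulin segments that rose had covered 25.8% by 8 weeks and 71.8% by 16 weeks, and the other 114 genes that rose 36.9% and 81.0%. Apob, Akr1c20 and Fbln5 had covered 22%, 4.12% and 13.6% by 8 weeks and 84.3%, 80.2% and 97.4% by 16 weeks. These shares describe genes chosen for the difference of their ends. The mean of the cell cycle list was already 5.93 to 6.18 at 8 weeks, within the 5.73 to 6.31 of the wild-type intron control medians. At that level a further fall can be hidden, and the part of this in the shares was not tested.

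The direction between 8 and 16 weeks uses no 4 or 24 week array. It is not fully free of the choice, since the 8 and 16 week arrays entered the spread and the filter on low signals. The 16 week mean was above the 8 week mean in 139 of the 148 genes that rose, beside 49.5% of all genes, and below it in 56 of the 68 that fell, beside 50.5%. All 17 cell cycle genes were lower at 16 than at 8 weeks, with a median difference of -0.16, and 33 of the 34 immunoglobulin segments were higher. These genes share arrays and are not independent of each other, and no test was run on the counts. The mean of the whole cell cycle list overlapped between 8 and 16 weeks. Replicate 4 was the highest 8 week array (6.18) and replicate 4 the lowest 16 week array (5.83). The other arrays had list means of 5.93, 5.94 and 6.02 at 8 weeks and 5.96, 5.95 and 5.997 at 16 weeks. The part of single arrays in the cell cycle count was not tested.

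**Figure D4:**
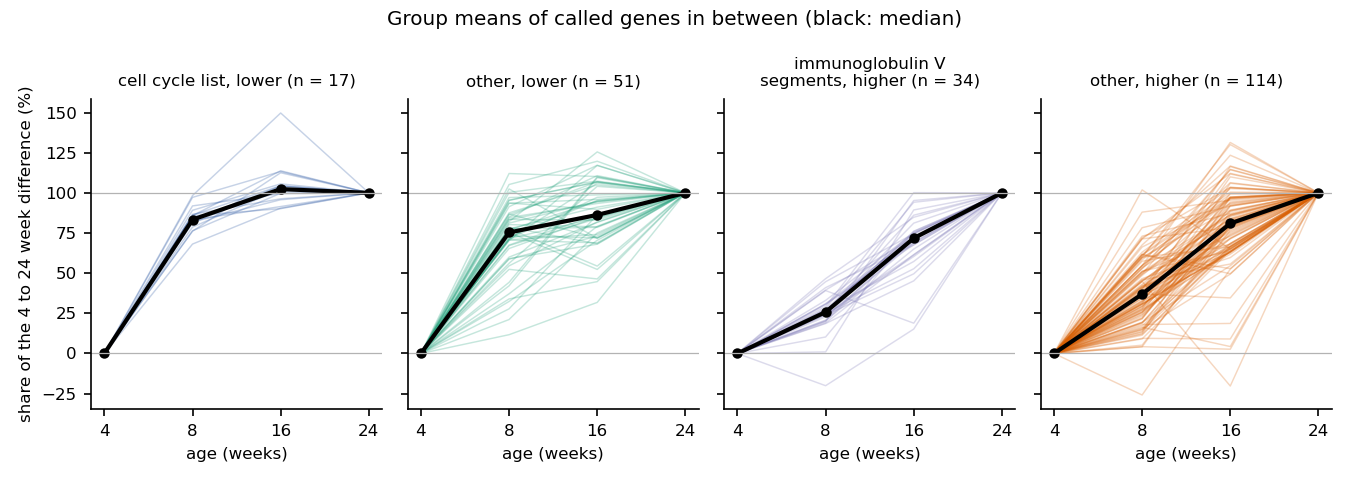
Share of the 4 to 24 week difference covered by each age's mean (y, percent) against age in weeks (x) for the 216 called genes, with 1 thin line per gene and the median in black. Cell cycle genes had covered a median of 83.3% by 8 weeks and immunoglobulin segments 25.8%.

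The same genes were then read in ob/ob mice, whose arrays took no part in choosing them. From 4 to 16 weeks 146 of the 148 genes that rose in wild type had a positive difference in ob/ob, beside 43.3% of all genes, and 67 of the 68 that fell had a negative one, beside 56.7%. From 4 to 24 weeks the counts were 121 of 148 (beside 41.9%) and 66 of 68 (beside 58.1%). Mki67 had differences of -1.76 at 16 weeks and -2.14 at 24 weeks in ob/ob, and Apob 4.85 and 4.57. Of the 24 week ob/ob arrays replicates 1, 2 and 4 had an exon and intron separation of 0.762 to 0.783, below the 0.826 to 0.886 of all wild-type arrays, and the part of this in the 24 week ob/ob values was not tested.

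Whether the change itself differed between genotypes was tested as an interaction over all 30 arrays. Between 24 and 4 weeks 1 gene passed (0.00437% of genes), and 3698 had an unadjusted p below 0.05 (16.2%), among them 81 of the 216 called genes. The gene was Lgr5, a receptor for R-spondins that amplifies Wnt signals, with 5.91, 5.99 and 5.95 in wild type at 4 weeks and 6.59, 6.57, 6.76 and 6.57 at 24 weeks, a rise of 0.67 (SE 0.08, adjusted p 0.00251). In ob/ob its means were 5.96 at 4 weeks and 5.90 at 24 weeks, a difference of -0.06. Intron control medians were 6.14 to 6.21 in the wild-type 4 week arrays and 5.90 to 6.79 in the ob/ob 24 week arrays. Signals at or below that level cannot show whether the gene rose in ob/ob. The 2 changes differed by -0.73 (limma interaction, adjusted p 0.0251). That call was lost without ob/ob 24 week replicate 1, 2 or 4, ob/ob 4 week replicate 2 or 3, wild-type 24 week replicate 3 or wild-type 4 week replicate 2 or 3. The number of interaction calls ran from 0 to 2777 as single arrays were left out, with 2777 without ob/ob 24 week replicate 3, 78 without wild-type 24 week replicate 1, 67 without wild-type 24 week replicate 4 and 11 without wild-type 4 week replicate 1. Between 16 and 4 weeks no gene passed in limma, with 1014 at an unadjusted p below 0.05 (4.43%), 27 of them called genes.

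Some rises of wild type were small in ob/ob without passing the interaction. Akr1c20 had ob/ob differences of 0.19 at 16 weeks and -0.09 at 24 weeks beside its wild-type rise of 2.00 (interaction adjusted p 0.0615 at 24 weeks), and Luzp2 0.57 and 0.23 beside 1.64 (0.0615). Cyp2d12 had 0.29 and 0.07 beside 1.98 (0.122), and Mgp 1.89 and 0.80 beside 2.79 (0.188). For Aldh1a1 the ob/ob differences were larger, 3.85 and 4.60 beside 3.10 (0.261). None of these passed, and an interaction that does not pass does not show that the genotypes aged alike.

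**Figure D5:**
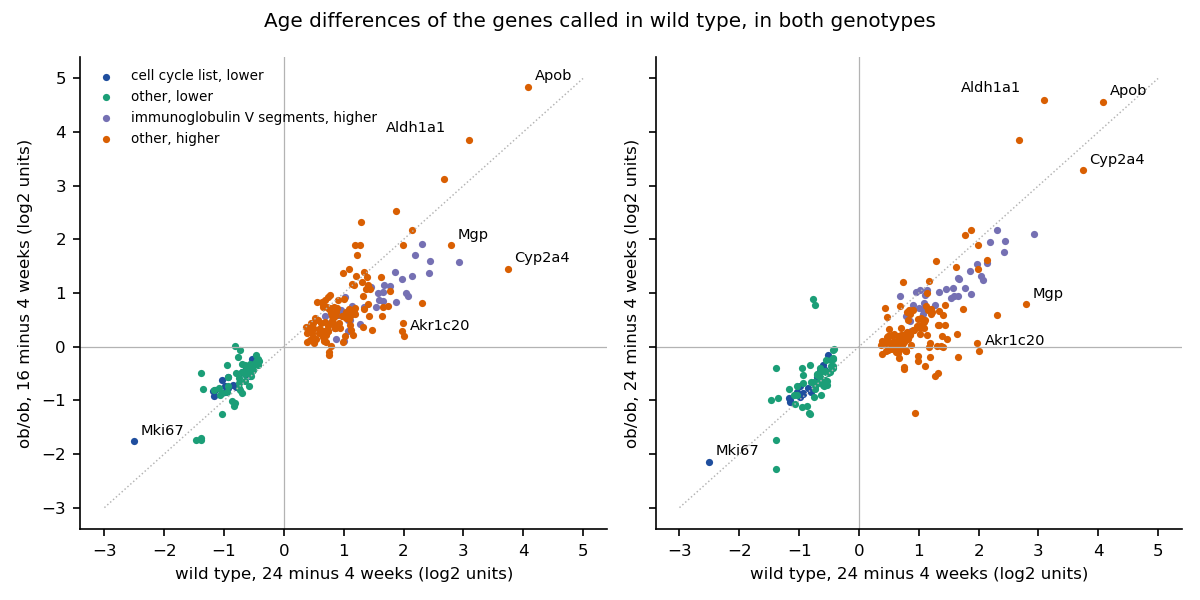
Differences of the 216 genes called in wild type: 24 minus 4 weeks in wild type (x, log2 units) against 16 minus 4 weeks (left) and 24 minus 4 weeks (right) in ob/ob (y, log2 units), with the dotted line marking equal change. Of the genes that rose in wild type, 146 of 148 lie above 0 on the left and 121 on the right, and Akr1c20 lies near 0 in both.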

How the data were processed

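The authors deposited log2 signals of 30 Affymetrix arrays; per the submitters' processing notes they were made with RMA in Affymetrix Expression Console 1.4, and further settings are unstated. They were used as deposited. Of 65956 transcript clusters, 30604 had 1 gene symbol in the platform annotation, 2146 several and 33206 none; symbols were updated through gene identifiers (22818 matched). The highest probe set was kept for 355 genes with several. Genes with a log2 signal of at least 5 in at least 3 of the 15 wild-type arrays were tested (22892, of which 347 share identical values with another), so a gene can pass through its higher group alone.

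With limma 3.58.1 in R 4.3.3, 1 mean per age was fitted to the 15 wild-type arrays (residual df 11, prior df 3.09, median residual SD 0.19), and genotype differences to all 30. No scan date or other batch is given in the labels. P values were adjusted by Benjamini-Hochberg within each comparison. In simulated data of 22892 genes, 16, 44, 50 and 50 of 50 changed genes were recovered at differences of 0.5, 1, 2 and 3. There were 13 false calls among the unchanged genes. The simulated noise was independent between genes and between arrays. It therefore does not cover deviations that many genes of an array share.

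Named genes were the 15 largest rises and 15 largest falls among called genes with separate groups, leaving out predicted, clone, small RNA and segment symbols, up to 4 called members of each of 42 lists, and a set of markers; others are said to be picked after their values were seen. The members, lists and rules were chosen with earlier results of these data known. H19, Cd74, Igkc and C3 were not analysed here. Alternatives were no filter, a filter at 6, all 30 or the 7 arrays, cyclic loess, array weights, trend and robust moderation, the mean of probe sets, 2 covariates, a replicate block, a minimum difference of 1 and each array left out. Promoters came from RefSeq (GRCm38.p6).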

Additional observations from a re-analysis of the deposited data

Results flagged for a closer look

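The change of Lgr5 with age passed as different between genotypes: its ob/ob change minus its wild-type change between 24 and 4 weeks was -0.73 (limma, adjusted p 0.0251). That call was lost when any 1 of 8 arrays, of both genotypes and both ages, was left out, and the number of such calls moved with single arrays of both genotypes. The Lgr5 means in ob/ob, 5.96 at 4 weeks and 5.90 at 24 weeks, lay near or below the intron controls.

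In the groups of 4 wild-type arrays, 23 single arrays lay far from the other 3 of their group, with a gap above 0.83 of the group's range (Dixon's critical value), among 369 groups of described genes; chance gives about 1 in 20. At 24 weeks these were replicate 2 for Rrm2 (6.49, highest), Lyz2 (10.55, highest) and Sema3g (13.42, highest), replicate 3 for Csf1r (8.15, highest) and Lgr5 (6.76, highest), replicate 4 for Peg3 (8.35, highest) and Cp (10.36, highest), and replicate 1 for Esm1 (8.08, lowest). The 4 week groups of 3 arrays were not examined in this way.

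At 16 weeks replicate 2 was highest for Col4a1 (9.92), Col4a3 (12.67) and Cp (10.38) and lowest for Cyp2d12 (9.13), replicate 1 was highest for Aurka (6.13) and Igf2 (6.24), and replicate 3 was highest for Ect2 (7.13) and lowest for Igkv4-62 (6.51). At 8 weeks replicate 4 was highest for Kif11 (6.41), Kif4 (5.64) and Esm1 (8.68), replicate 1 was lowest for Igf1 (6.32) and Serpinb8 (7.5), replicate 2 was lowest for Cd79a (4.99), and replicate 3 was lowest for Itih5 (7.86).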

How the results depend on the processing

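The count of 216 called genes (148 higher, 68 lower) became 349 with cyclic loess (167 lower), 430 with array weights (295 higher, 135 lower), 531 with exon and intron separation as covariate (226 and 305), 426 with the proximal tubule mean as covariate (247 and 179) and 93 with a difference of at least 1 (78 and 15); 103 were lower in the fit of all 30 arrays and 43 with the 7 compared arrays alone. Leaving out 1 array gave 94 to 336 calls, 59 to 234 higher and 35 to 102 lower. The 16 against 8 week comparison called 8 genes in the fit of all 30 arrays and 0 to 94 without single arrays. The genotype difference at 24 and 4 weeks called 32 genes with cyclic loess, 4 without ob/ob 24 week replicates 1, 2 and 4 together and 0 to 2777 without single arrays, and that at 16 and 4 weeks 0 to 3. With the replicate number as a block the counts were 150 (36 lower), 3 for 16 against 8 weeks and 3 for the genotype difference. The labels do not say whether same-numbered arrays share a litter or a batch. Between 4 and 24 weeks the deviations of same-numbered arrays from their group means correlated at 0.21, -0.16 and 0.31. Over all wild-type ages the median was 0.05 in 21 same-numbered pairs and -0.04 in 63 others. So few arrays cannot decide whether the numbers pair. Leaving out 16 week replicate 2 or 8 week replicate 4 was added after seeing the data and gave 293 and 203 calls. The causes of these shifts were not tested.

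Of 1670 values of the 80 called genes described, 1436 kept direction and call and 234 (58 genes) lost the call in the same direction. Of 921 values of 44 genes not called, 49 (14 genes) passed. Umod turned positive with separation as covariate (0.0051) and ran from -0.147 to 0.0855 without single arrays. Signals near the intron controls limit the rest: 69 of the 148 genes that rose had 4 week means below the highest intron control median. Of the 68 genes that fell, 36 had 24 week means below it.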

Other observations

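Among the called genes not described above, several that passed by a wide margin belong to other groups, and they were picked after their values were seen. Gabra3, a subunit of the GABA A receptor, had 5.66, 5.63 and 5.90 at 4 weeks and 7.09, 6.72, 6.92 and 7.0 at 24 weeks, a rise of 1.20 (SE 0.13, adjusted p 0.000733 by limma). Abca9, a lipid transporter of the ABC family, had 7.98, 8.09 and 8.45 against 9.43, 9.39, 9.64 and 9.74, a rise of 1.38 (SE 0.21, adjusted p 0.00544). Both were called under all 21 alternatives.

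Cyp1b1, a cytochrome that metabolises estrogens and retinoids, rose by 1.34 (SE 0.18, adjusted p 0.00332), Colec12, a scavenger receptor, by 1.4 (SE 0.21, adjusted p 0.00537), and Cp, the copper carrier ceruloplasmin, by 1.28 (SE 0.20, adjusted p 0.00622). In the fit of all 30 arrays these 3 did not pass, with adjusted p of 0.0654, 0.0813 and 0.0511, the highest over their alternatives. Their 24 minus 4 week differences in ob/ob were 0.41, 0.00 and 1.59, and none of the 3 passed the interaction between genotypes. Replicates 1, 2 and 4 of the 24 week ob/ob arrays had an exon and intron separation of only 0.762 to 0.783. The part of this in these differences was not tested.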
